A study of Rattus norvegicus with 14 samples.

Results

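The genes described here encode proteins that the epididymis secretes into its lumen or passes on to the surface of spermatozoa: Cd52, Clu, Ces5a, Npc2, Mfge8, Spag11a, Teddm1 and Bin2a. They were taken by symbol from the annotation of the array, and 7 of the 8 had a transcript cluster (the set of probes that is summarised into 1 value), out of 18166 genes tested. Each of the 7 had a single cluster. Teddm1, which RefSeq now lists as Teddm1a, had no cluster under either name or under its gene identifier and was not analysed here. Expression was measured in whole epididymides of Sprague-Dawley rats at postnatal day 7 (3 pools), day 18 (4 pools), day 28 (4 pools) and day 60 (3 pools), each pool on its own RatGene 2.0 ST array. The groups differ in age and share strain and tissue, and the labels name no drug or other treatment. The younger rats were kept with their lactating mothers and the rats of day 28 and day 60 had free access to food and water. The tissue was not separated, so every value mixes principal cells, which are the secretory cells of the duct, with other epithelial cells, stroma, muscle, vessels, leukocytes and the contents of the lumen. Fewer cells of a type and less RNA per cell cannot be told apart in it.

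Spermatozoa leave the testis unable to fertilise and gain that ability in the epididymis, where proteins of the luminal fluid bind to them, are exchanged on their membrane or change its lipids. Cd52 is a very short peptide with a large glycan and a GPI lipid anchor that inserts into the sperm membrane; lymphocytes carry it too. Clu (clusterin) is a secreted chaperone that binds misfolded proteins, Npc2 is a small luminal protein that binds cholesterol, and Mfge8 is an adhesive protein that binds phosphatidylserine and integrins. Ces5a is a secreted carboxylesterase. Bin2a carries the RefSeq synonym Glb1l4, a name of the beta-galactosidase-like family. Spag11a, known in the rat as Bin1b, is a beta-defensin-like antimicrobial peptide of the epididymis.

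Values are log2 signals, so that a difference of 1 is a 2-fold change. Array medians lay between 5.21 and 5.42, and pools of the same age correlated at 0.989 to 0.995 over the 18166 genes, which are not independent replicates. Pools of an age lay together on the first 2 principal components. On the third, which held 6.07% of the variance, day 28 replicate 2 scored -25.2 and the other pools of that age -15.9 to -14.2. Its array median was the highest. No call on the 7 genes was lost or gained when it or any other pool was left out. The labels do not say how many animals made up a pool. Precision is limited by how few pools there are, and p-values here speak only of the spread between them. Olfactory and vomeronasal receptor genes served as a gauge of background, and 95% of the 1344 such genes averaged under 4.92. At the other end the highest value on an array, called the ceiling here, lay between 13.63 and 13.81. The signal of a cluster depends on its probes, so levels of different genes are not compared.

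Of the 7 genes, 5 rose between day 7 and day 18 (Cd52, Clu, Ces5a, Npc2 and Bin2a), 1 fell (Mfge8) and 1 did not pass the test (Spag11a). All 7 rose between day 18 and day 28, and with a minimum change of 1.5-fold the calls of Cd52, Clu, Ces5a and Npc2 at that step ended (adjusted p = 1 for each) while those of Mfge8, Spag11a and Bin2a held. Between day 28 and day 60 Mfge8 and Spag11a rose, and the other 5 did not pass. These counts come from limma's moderated test with Benjamini-Hochberg adjustment over the 18166 genes and a threshold of 0.05. Among all genes tested 38.1% were called at day 18 against day 7, 17.4% higher and 20.7% lower. At day 28 against day 18 24.7% were called, 10.5% higher and 14.3% lower, and at day 60 against day 28 25% were called, 13.8% higher and 11.2% lower. The counts of other gene lists given below are to be read beside these same shares. The pools of the 2 ages did not overlap for 6, 7 and 5 of the 7 genes over these 3 steps, beside 45.1%, 26.5% and 31.4% of all genes. The median difference of the 7 genes was 1.24, 0.70 and 0.05 over the 3 steps, beside 0.01, -0.02 and -0.02 over all genes. The direction of calls over all genes moved with the scaling. With each array centred on its median 1339 genes were higher and 2890 lower at day 28 against day 18, instead of 1899 and 2592, and 2793 were higher and 1104 lower at day 60 against day 28, instead of 2511 and 2039. With quantile normalization the last pair was 2211 and 2633. Over the whole span from day 7 to day 60, which uses the same pools as the single steps, all 7 were higher with no overlap of pools. Among all genes 49.2% were called over that span, 21.7% higher and 27.6% lower, and 57.8% did not overlap. All 7 differed at some age in the F test, as did 60.4% of all genes.

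**Figure D1:**
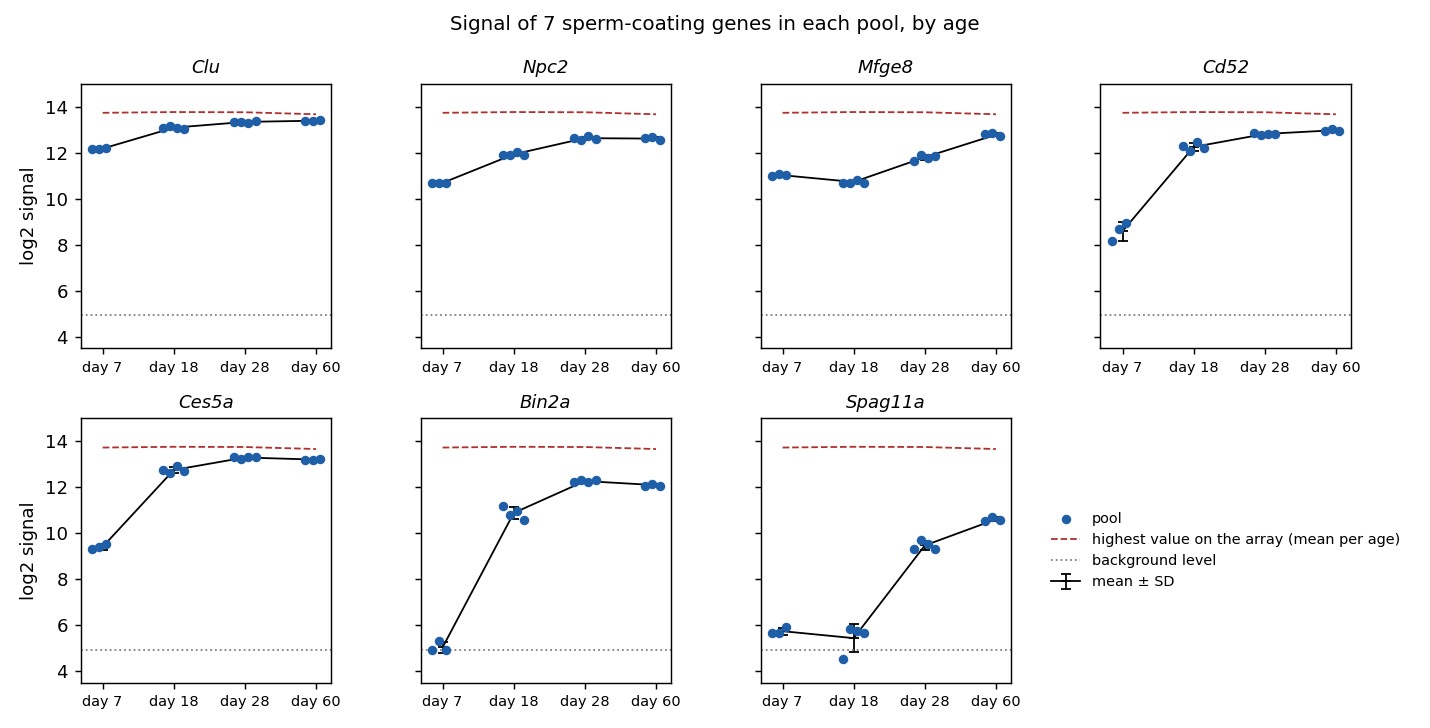
Log2 signal (vertical axis) of the 7 measured genes at each age (horizontal axis). Blue points are pools, black lines join the means with SD bars, the red dashed line is the mean of the highest values on the arrays of an age and the grey dotted line is the background level of 4.92. Clu and Ces5a came nearest to the red line, while the pools of Spag11a read 10.70 or less at every age.

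Cd52, the GPI-anchored sperm antigen, had its main rise between day 7 and day 18. Its log2 signal was 8.14, 8.66 and 8.95 in the pools of day 7, 12.28, 12.08, 12.44 and 12.18 at day 18, 12.84, 12.79, 12.80 and 12.82 at day 28, and 12.96, 13.01 and 12.96 at day 60. Each age lay above the one before it with no overlap. The level at day 18 was 12.25 ± 0.15 (SD, n = 4) against 8.58 ± 0.41 at day 7 (n = 3), 12.7-fold higher (log2 difference 3.66 ± 0.14, SE; limma adjusted p = 8.42e-11). At day 28 against day 18 it was 1.48-fold higher (adjusted p = 0.00559). The last step was small, with 12.98 ± 0.03 at day 60 (n = 3) and 12.81 ± 0.02 at day 28 (n = 4), a difference of 0.17 with a 95% interval of 0.30 to either side, and it did not pass (limma adjusted p = 0.44). The SE of the fit takes in the spread of all ages, including the SD of 0.41 at day 7. With the pools of day 28 and day 60 alone the adjusted p was 0.181.

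Genes of leukocytes, which carry Cd52 as well, moved up over the same first step. Of the 27 measured of 30 listed leukocyte genes 18 rose and 0 fell at day 18 against day 7, with a median difference of 0.55. Their summed linear signal was 11138 to 12545 in the day 18 pools and 8816 to 9082 in the day 7 pools. Genes of high signal weigh most in that sum: at day 18 Cd24 averaged 11.97, Cd48 11.32, Cd7 10.50 and Ptprc 7.46. The sum is not a measure of the number of leukocytes. The marker of all leukocytes, Ptprc, rose by 1.14 ± 0.10 (limma adjusted p = 2.30e-07), and the largest rise was that of Cd7, a T cell and natural killer cell protein, at 2.01 ± 0.13. The B cell marker Ms4a1 averaged 3.91 at day 18 and 3.76 at day 7, under the background level. At day 28 against day 18, where Cd52 rose again, 0 of the 27 rose and 5 fell. The part of leukocytes in the Cd52 signal was not tested. The 27 genes that make or attach GPI anchors showed 2 rises and 3 falls at day 18 against day 7, with a median difference of 0.13. Of all genes 17.4% were higher and 20.7% lower at that step. At day 60 against day 28, 10 of them rose and 1 fell; Pigz, a mannosyltransferase of that pathway, rose by 1.87 ± 0.21.

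**Figure D2:**
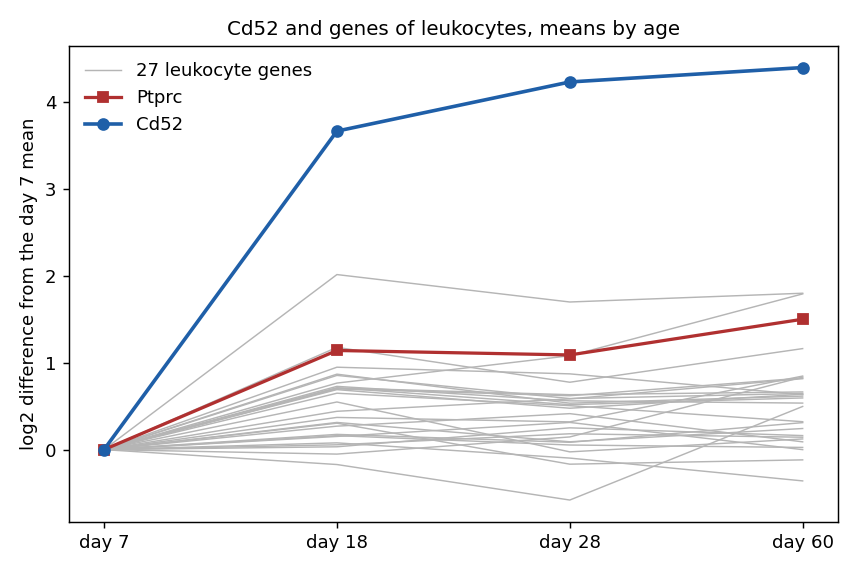
Log2 difference from the day 7 mean (vertical axis) by age (horizontal axis) for Cd52 (blue), Ptprc (red) and the 27 measured leukocyte genes (grey, Ptprc among them). Cd52 was 3.66 above its day 7 mean at day 18, and Cd7, the highest grey line there, was 2.01 above its own.

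Clu, the luminal chaperone, was already at 12.16, 12.15 and 12.21 in the pools of day 7. It read 13.07, 13.14, 13.09 and 13.04 at day 18, 13.32, 13.34, 13.31 and 13.38 at day 28, and 13.38, 13.36 and 13.43 at day 60. The ages did not overlap up to day 28, and day 60 overlapped day 28. Clu was 1.88-fold higher at day 18 than at day 7 (log2 difference 0.91 ± 0.06, SE; limma adjusted p = 3.25e-08) and 1.19-fold higher at day 28 than at day 18 (adjusted p = 0.00518). The second call ended when arrays were centred on their medians (difference 0.20, adjusted p = 0.0741). The difference at day 60 against day 28 was 0.05 with a 95% interval of 0.13 to either side (limma adjusted p = 0.586).

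Of the 14 measured receptors, adaptors and folding partners listed for clusterin 7 rose and 1 fell at day 18 against day 7, and 9 rose and 1 fell at day 28 against day 18, and 4 rose and 1 fell at day 60 against day 28. The chaperones Pdia4 and Hsp90b1 rose by 0.67 ± 0.09 and 0.64 ± 0.08 at day 18 against day 7. Lrp2 (megalin), an endocytic receptor that takes up clusterin, rose by 1.46 ± 0.18 at day 28 against day 18 and by 0.86 ± 0.19 at day 60 against day 28, and its partner Cubn (cubilin) rose by 0.78 ± 0.15 at the last step. Amn (amnionless), which binds cubilin, fell by 0.29 ± 0.10 at the last step (limma adjusted p = 0.0482), and Dab2, an adaptor of megalin, fell by 0.45 ± 0.08 at day 28 against day 18. Clu did not pass the test at that last step.

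Npc2, the cholesterol-binding protein, had 10.70, 10.68 and 10.68 in the pools of day 7 and 11.88, 11.91, 12.03 and 11.88 at day 18. It had 12.62, 12.56, 12.72 and 12.61 at day 28, and 12.63, 12.66 and 12.54 at day 60. The level stepped up at day 18 and day 28 and then overlapped. It was 2.36-fold higher at day 18 than at day 7 (log2 difference 1.24 ± 0.07, SE; limma adjusted p = 4.19e-09) and 1.63-fold higher at day 28 than at day 18 (0.70 ± 0.06; adjusted p = 1.63e-06). Day 60 differed from day 28 by -0.02 with a 95% interval of 0.15 to either side (limma adjusted p = 0.878).

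Genes that handle cholesterol in lysosomes and lipoproteins were called in both directions, as were the genes tested as a whole. Of 20 measured, 7 rose and 3 fell at day 18 against day 7. At day 28 against day 18 3 rose and 5 fell, and at day 60 against day 28 9 rose and 1 fell. The shares of all genes at these steps were 17.4%, 10.5% and 13.8% higher and 20.7%, 14.3% and 11.2% lower. Npc1, the lysosomal membrane protein that takes over cholesterol from Npc2, averaged 7.16, 7.31, 7.15 and 7.66 at day 7, day 18, day 28 and day 60. It passed the test at the last step alone (0.51 ± 0.10; limma adjusted p = 0.0022), where Npc2 did not. At day 28 against day 18, where Npc2 rose 1.63-fold, Apoe, a lipid-carrying apolipoprotein, was among the 3 that rose (0.87 ± 0.13). Abcg1 (-0.55 ± 0.09) and Soat1 (-0.43 ± 0.08) were among the 5 that fell.

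Mfge8, the adhesive milk fat globule protein, fell at the first step and rose at both later ones. It had 10.99, 11.05 and 11.02 at day 7, 10.69, 10.69, 10.82 and 10.69 at day 18, 11.65, 11.90, 11.78 and 11.87 at day 28, and 12.79, 12.84 and 12.71 at day 60. No pool of one age overlapped another, and the order of the ages from low to high was day 18, day 7, day 28, day 60. It fell by 0.29 ± 0.08 (SE) at day 18 against day 7 (limma adjusted p = 0.00641), a call that ended when a minimum change of 1.5-fold was asked for. It then rose 2.11-fold at day 28 against day 18 (adjusted p = 5.16e-08) and 1.97-fold at day 60 against day 28 (adjusted p = 6.41e-07).

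Cells outside the epithelium make Mfge8 too, and their genes moved with it at some steps and against it at others. At day 18 against day 7, where Mfge8 fell, 0 of the 17 measured fibroblast and smooth muscle genes rose and 14 fell. Of the 12 endothelial genes 1 rose and 8 fell, and of the 20 macrophage genes 2 rose and 4 fell. Of the 22 measured markers of the principal cell epithelium 15 rose and 2 fell at that step. The summed linear signal of the fibroblast and smooth muscle list was 33651 to 36489 at day 18 and 49775 to 53421 at day 7. At day 28 against day 18, where Mfge8 rose, 9 fibroblast and smooth muscle genes rose and 1 fell, 6 endothelial genes rose and 0 fell, and 2 of the 20 macrophage genes rose and 9 fell. At day 60 against day 28, where Mfge8 rose again, 1 fibroblast and smooth muscle gene rose and 5 fell, and 2 endothelial genes rose and 0 fell. At that step 12 of the macrophage genes rose and 1 fell, led by Siglec1 (1.30 ± 0.11) and Cd163 (1.25 ± 0.09), and the summed signal of that list was 6721 to 7250 at day 60 and 4999 to 5609 at day 28. Haploid germ cell genes were higher at the same step in 11 of 23 cases. The fit gave 6.15 ± 0.16 for Smcp and 2.47 ± 0.17 for Prm1, but their day 28 means of 3.86 and 4.918 lay under the background level, so these sizes are uncertain. The part of these cells in the Mfge8 signal was not tested. Of the 18 measured integrins, relatives and clearance genes listed with Mfge8, 2 rose and 8 fell at day 18 against day 7, 0 rose and 2 fell at day 28 against day 18, and 4 rose and 2 fell at day 60 against day 28. Itga8, an integrin subunit, fell by 1.23 ± 0.17 at the first step and rose by 1.29 ± 0.17 at the last.

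**Figure D3:**
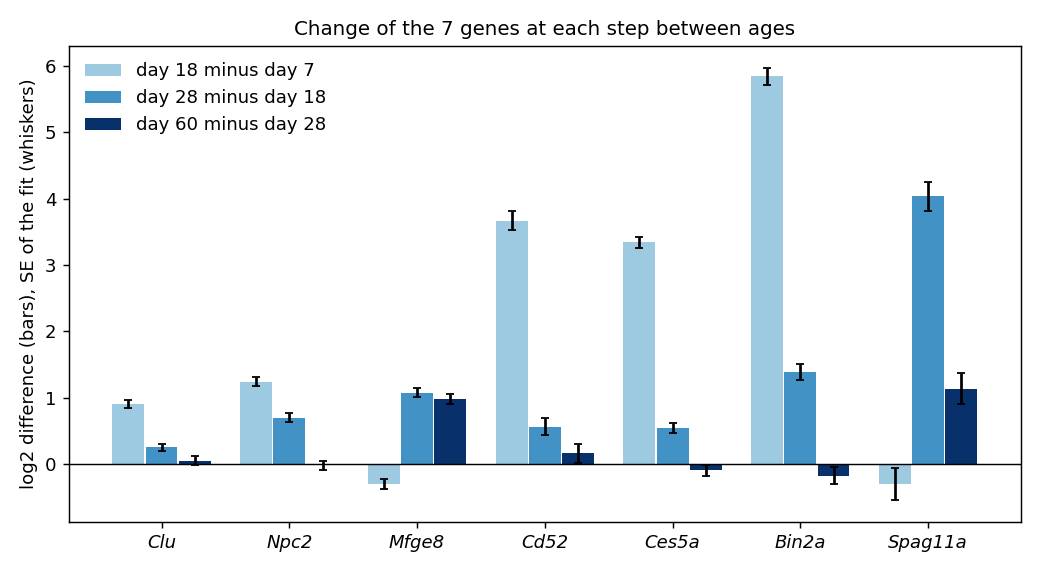
Log2 difference between neighbouring ages (vertical axis) for each of the 7 genes (horizontal axis), with the SE of the fit as whiskers. Bars above 0 are higher at the later age. The first step was the largest for Clu, Npc2, Cd52, Ces5a and Bin2a, and Mfge8 and Spag11a had differences of -0.29 and -0.30 there and rises at both later steps.

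Ces5a, the secreted carboxylesterase, followed a course like that of Cd52. It had 9.31, 9.39 and 9.55 at day 7, 12.77, 12.62, 12.93 and 12.71 at day 18, 13.32, 13.25, 13.31 and 13.31 at day 28, and 13.20, 13.20 and 13.22 at day 60. It stood at its highest at day 28, with the day 60 pools just under the day 28 pools and no overlap. Ces5a was 10.1-fold higher at day 18 than at day 7 (log2 difference 3.34 ± 0.08, SE; limma adjusted p = 9.80e-13) and 1.46-fold higher at day 28 than at day 18 (0.54 ± 0.08; adjusted p = 0.000102). The difference at day 60 against day 28 was -0.09 with a 95% interval of 0.18 to either side and did not pass (limma adjusted p = 0.463).

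Some other esterases rose at the first step as well. Of 16 measured carboxylesterases and related hydrolases 7 rose and 0 fell at day 18 against day 7. At day 28 against day 18 2 rose and 0 fell, and at day 60 against day 28 4 rose and 1 fell. Of all genes tested, 17.4%, 10.5% and 13.8% were higher at these steps and 20.7%, 14.3% and 11.2% lower. Of the 16, 7 averaged above background at day 7 and 9 at day 60. Ces1e had 10.03 ± 0.26 at day 18 (n = 4) and 5.62 ± 0.38 at day 7 (n = 3), a log2 difference of 4.42 ± 0.19 (SE), and fell by 1.01 ± 0.19 at day 60 against day 28. Ces2c rose at all 3 steps, by 3.13 ± 0.10, 1.76 ± 0.09 and 0.92 ± 0.10. Its day 7 mean of 5.06 was near background, so the size of the first rise is uncertain. Ces4a passed at the last step alone, with 6.39 ± 0.06 at day 60 and 4.95 ± 0.15 at day 28. That day 28 mean was near background, so the size of this rise is uncertain. Carboxylesterase genes resemble each other, and signal shared between them was not separated.

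Bin2a had the largest change of the 7 genes. Its signal was 4.91, 5.32 and 4.91 at day 7, 11.20, 10.81, 10.96 and 10.58 at day 18, 12.22, 12.30, 12.24 and 12.33 at day 28, and 12.07, 12.14 and 12.08 at day 60. At day 7 only replicate 2 lay above the background level of 4.92, so the size of the rise from that age is uncertain. The fit gave a log2 difference of 5.84 ± 0.13 (SE) at day 18 against day 7 (limma adjusted p = 5.10e-13) and 1.39 ± 0.12 at day 28 against day 18 (adjusted p = 9.14e-07). Day 60 lay under day 28 with no overlap, at -0.18 with a 95% interval of 0.28 to either side, and did not pass (limma adjusted p = 0.359; 0.17 with the pools of the 2 ages alone). Genes named after beta-galactosidase were looked at after their values had been seen. Glb1, the lysosomal enzyme, rose by 1.36 ± 0.08 and 1.12 ± 0.07 at the first 2 steps and differed by 0.01 ± 0.08 at the last. It averaged 12.66 at day 28 and 12.66 at day 60, and a small difference at that level does not show an equal amount of RNA. Glb1l2 rose by 1.70 ± 0.07 at day 18 against day 7 and fell by 0.45 ± 0.07 at day 28 against day 18, and Glb1l fell by 0.35 ± 0.07 at the first step. Glb1l3 averaged under the background level at every age.

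Spag11a, the beta-defensin-like peptide, passed the test at the 2 later steps and not at the first. It had 5.65, 5.66 and 5.93 at day 7 and 4.53, 5.82, 5.76 and 5.67 at day 18, and these ages overlapped (log2 difference -0.30 ± 0.24, SE; limma adjusted p = 0.355). Day 18 replicate 1 lay under the background level, and without it the difference was 0.002 (adjusted p = 0.995). At day 28 the pools had 9.31, 9.71, 9.56 and 9.32, and at day 60 they had 10.55, 10.70 and 10.59. The level was 9.48 ± 0.20 at day 28 (n = 4) against 5.44 ± 0.61 at day 18 (n = 4), 16.3-fold higher (4.03 ± 0.22; limma adjusted p = 7.90e-09) and the thirteenth largest rise of that step. The day 18 level was near background, so the size and rank of this rise are uncertain. With 1 pool left out the difference ran from 3.73 to 4.16. It was 2.20-fold higher at day 60 than at day 28 (1.14 ± 0.24; adjusted p = 0.00286), a call that ended when a minimum change of 1.5-fold was asked for.

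The relative Spag11c passed the test at day 18 against day 7 and at day 28 against day 18, and not at day 60 against day 28. It averaged 9.43 ± 0.30 at day 18 (n = 4) and 4.42 ± 0.51 at day 7 (n = 3), a log2 difference of 5.01 ± 0.20 (SE) whose size is uncertain, rose by a further 2.83 ± 0.18 at day 28 and differed by 0.25 ± 0.20 at day 60 (limma adjusted p = 0.391). At day 7 it averaged less than the background level. At day 28 and day 60 it averaged 12.25 and 12.51, and a small difference at that level does not show an equal amount of RNA. The difference in timing between Spag11c and Spag11a was not tested. Defb2, a beta-defensin, rose at each step, with means of 3.87, 5.98, 8.74 and 11.64 from day 7 to day 60. Its day 7 mean was below background, so the size of the first rise is uncertain, and the later ones were 2.76 ± 0.32 and 2.89 ± 0.35. Teddm3, the measured relative of the unmeasured Teddm1, averaged 5.08, 5.11, 5.40 and 4.95 from day 7 to day 60. These means were near the background level, and Teddm3 passed the test at no step between neighbouring ages. Genes of this family resemble each other, and signal shared between them was not separated.

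**Figure D4:**
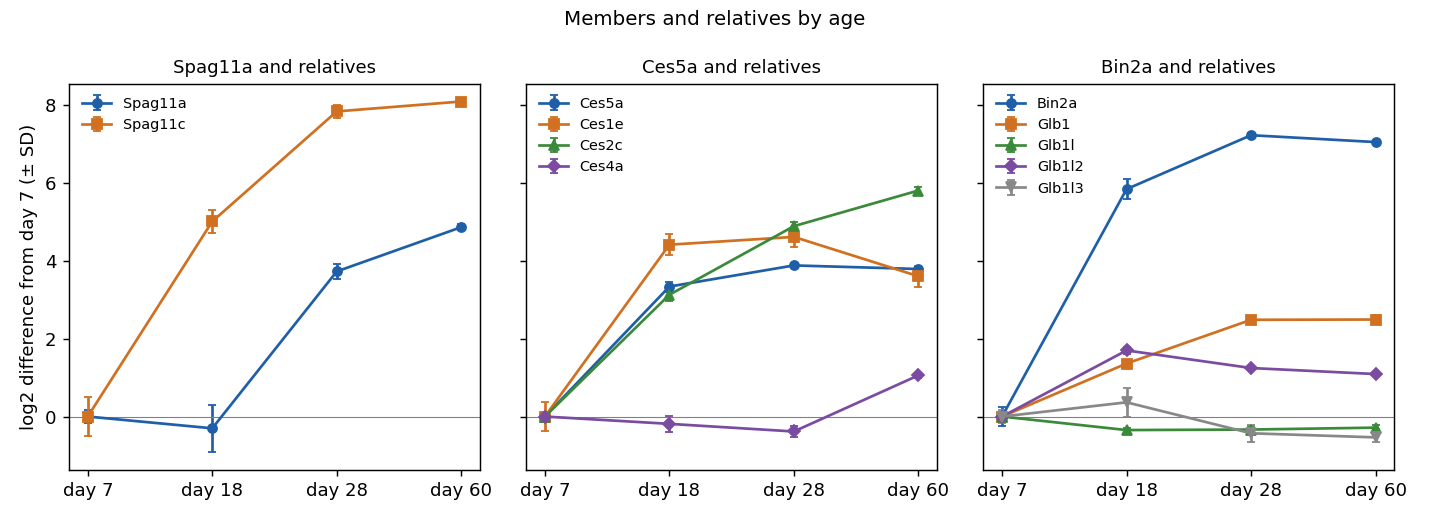
Log2 difference from the day 7 mean (vertical axis) by age (horizontal axis), with the SD of the pools of each age as bars, for Spag11a, Ces5a and Bin2a and genes of like name. Spag11c was 5.01 above its day 7 mean at day 18, where Spag11a was at -0.30, and Bin2a was at 5.84 while Glb1 was at 1.36.

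The genes differed in how much of the log2 change from day 7 to day 60 was in place at day 18. The share was 88.1% for Ces5a, 83.4% for Cd52, 82.8% for Bin2a, 75.0% for Clu, 64.5% for Npc2, -6.22% for Spag11a and -16.7% for Mfge8. The shares are a description without an error. That of Bin2a rests on a day 7 level near background, and that of Spag11a on a day 18 level near it. Those of Clu, Ces5a, Cd52 and Mfge8 rest on day 60 levels near the ceiling. No order is read among Ces5a, Cd52 and Bin2a. At day 28 the share was between 95.6% and 102% for the first 5, 76.6% for Spag11a and 44.3% for Mfge8. On the linear scale, where high levels weigh more, the shares at day 18 were lower for the first 5, from 43.3% for Bin2a to 71.3% for Ces5a, and those at day 28 were 43.8% for Spag11a and 30.2% for Mfge8.

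Several of the genes came near the ceiling of the arrays. The gap between Clu and the highest value of its array was 1.49 to 1.60 at day 7, 0.64 to 0.74 at day 18, 0.36 to 0.46 at day 28 and 0.20 to 0.35 at day 60, where Clu ranked between 4 and 9 among the 36685 clusters. For Ces5a the gap was 0.41 to 0.50 at day 60 and for Cd52 it was 0.67 to 0.71. At day 60 each array held 55 to 61 clusters within 1 of its highest value, and 4 of the 7 genes were among them in each pool (Clu, Ces5a, Cd52 and Mfge8). At day 7 none of the 7 was. Npc2 stayed 1.03 to 1.09 below the highest value at day 60 and Bin2a 1.55 to 1.59. Spag11a stayed 3.00 to 3.12 below and ranked between 692 and 835.

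Calls were also counted by the level before a step. Of the 30 genes with a day 28 mean of 12.5 or more, 0 were called higher at day 60 by limma and 30.0% were lower; 4 of the 30 were Cd52, Clu, Ces5a and Npc2. Among genes with a day 28 mean from 8 to 10, 21.9% were called higher, and Spag11a was one of them. In the class just under the highest, from 12 to 12.5, it was 20% of 45 genes, and Bin2a was in this class and not called. One step earlier 28 genes had a day 18 mean of 12.5 or more, and the 2 of them called higher at day 28 were Clu and Ces5a. Replicate SDs were smaller at high levels: the SD of Cd52 was 0.41 at day 7 and 0.03 at day 60, and the median SD of genes with a day 28 mean of 12.5 or more was 0.05 against 0.10 for those from 8 to 10. Whether the arrays hold back differences at this level was not tested. A p over the threshold for Cd52, Clu, Ces5a or Npc2 at day 60 against day 28 does not show an equal amount of RNA.

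**Figure D5:**
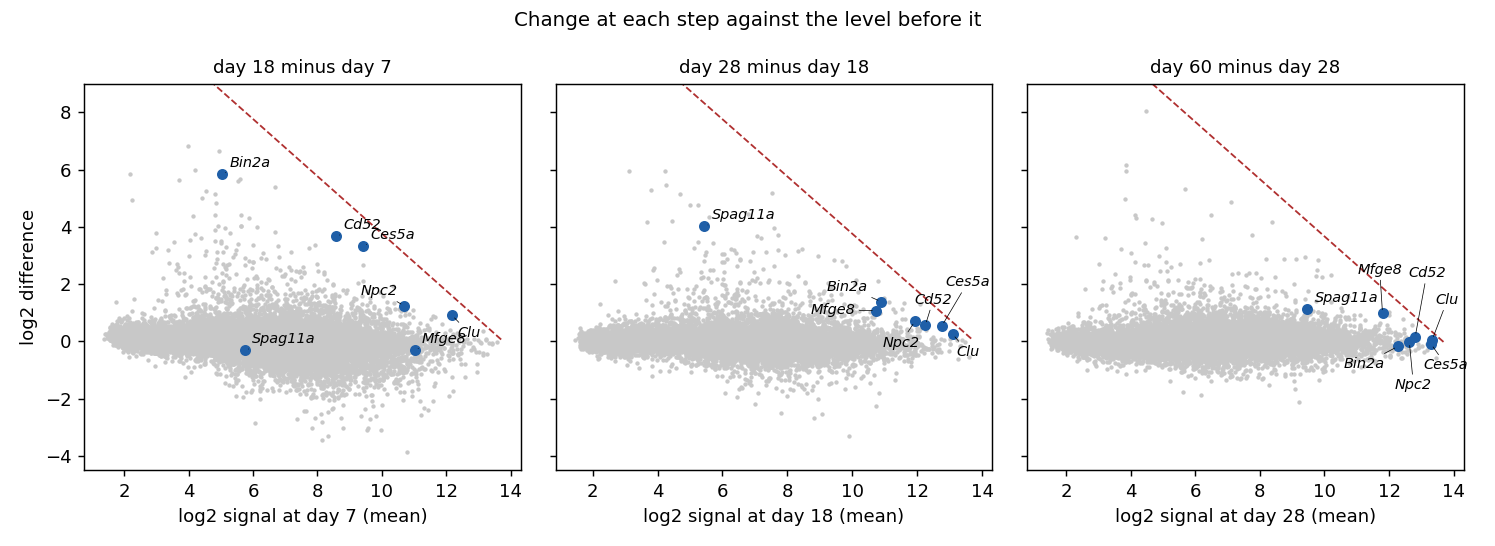
Log2 difference at each step (vertical axis) against the mean log2 signal at the earlier age (horizontal axis) for the 18166 genes (grey) and the 7 described here (blue). The red dashed line marks the rise that would take a gene to the mean highest value on the arrays of the later age. In the last panel Cd52, Clu, Ces5a and Npc2 lie at the right end near the line, and Mfge8 is 0.98 above 0.

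The genes whose log2 signal ran most like that of each member over the 14 pools were chosen by Pearson's correlation, 3 for each. For Cd52 they were Serpina16 (Pearson r = 0.999), Serpina1fl1 (0.999) and Qsox1 (0.996), and for Ces5a they were Serpina16 (0.998), Pate6l (0.997) and Serpina1fl1 (0.996). For Bin2a they were Defb1 (0.998), Wfdc10a (0.997) and Rnase12 (0.997). Clu ran with Tspan1 (0.997), Thrsp (0.997) and Defb44 (0.996), and Npc2 with Exoc3l4 (0.998), Fkbp5 (0.996) and Wfdc16 (0.996). Spag11a ran with Defb22 (0.991), Defb26 (0.987) and Pm20d1 (0.986), and Mfge8 with Ly6g6c (0.994), Cox6b1 (0.987) and Alg12 (0.987). The pools share ages and arrays, so these values mostly reflect 4 age means, and for each member between 95 (Mfge8) and 373 (Npc2) genes had an r above 0.95. Spearman's rho for the same pairs ran from 0.754 (Bin2a with Defb1) to 0.978 (Cd52 with Qsox1).

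The members were set beside 45 other measured genes of luminal or sperm-coating proteins, of 62 listed with earlier results of these data known. At day 18 against day 7 29 of the 45 rose and 4 fell, at day 28 against day 18 30 rose and 3 fell, and at day 60 against day 28 22 rose and 4 fell. At the last step Defb42 averaged 12.55 at day 60 and 4.49 at day 28, which is under the background level and leaves the size of its rise uncertain, and Lcn9 rose by 5.33 ± 0.31. Wfdc2, a protein with whey acidic protein domains, averaged 9.54 at day 7 and 10.80 at day 18. It fell at day 28 against day 18 (by 1.79 ± 0.08) and at day 60 against day 28 (by 0.80 ± 0.09). Markers of the principal cell epithelium rose at the first step, where 15 of 22 were higher and 2 lower, with the water channel Aqp9 at 3.95 ± 0.09. Aqp9 averaged 5.14 at day 7, near background, which leaves that size uncertain. At day 28 against day 18 4 rose and 8 fell. Slc9a3 (1.03 ± 0.18) and Aqp9 (0.61 ± 0.09) were among the rises, and Cdh16 (-1.09 ± 0.06) and Krt19 (-1.03 ± 0.08) among the falls. The summed linear signal of the list was 14167 to 14956 at day 28 and 17118 to 18153 at day 18. Genes of high signal weigh most in that sum, and it is not a measure of the number of principal cells. Of the 15 measured genes of androgen action 5 rose and 2 fell at day 18 against day 7, among them the steroid receptor co-chaperone Fkbp5 (1.34 ± 0.07).

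The sequences before the transcription start are shown for the 3 genes that rose most between day 7 and day 18 and have a RefSeq promoter entry (Cd52, Ces5a and Bin2a) and for Mfge8, which fell there. RefSeq, with coordinates of the build GRCr8, listed 6 of the 8 genes, and Clu and Spag11a had no entry in the table used. Each line gives the 250 bases upstream of the start, 5′ to 3′ in the direction of the gene, for Cd52 at chr5:151605097-151605346, minus strand, Ces5a at chr19:11475068-11475317, plus strand, Bin2a at chr8:33562905-33563154, minus strand and Mfge8 at chr1:142489432-142489681, minus strand. Capitals mark matches, on either strand, to the motifs TATAAA (a core promoter box), CCAAT (a proximal promoter box), GGGCGG (GC box), AGGAAG (ETS factors), TGTTCT (half-site of the androgen receptor), TNTTTAC (FOXA factors), AGATAA (bound by factors of the GATA family) and TGANTCA (AP-1). The full site of the androgen receptor, in which a half-site can lie, was searched as well. Matches of different motifs did not overlap in these windows.
Cd52: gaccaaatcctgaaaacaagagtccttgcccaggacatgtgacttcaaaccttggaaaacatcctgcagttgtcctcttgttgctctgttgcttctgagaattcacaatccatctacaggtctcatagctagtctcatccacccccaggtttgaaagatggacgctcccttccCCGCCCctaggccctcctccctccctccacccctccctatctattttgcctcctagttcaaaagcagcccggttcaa
Ces5a: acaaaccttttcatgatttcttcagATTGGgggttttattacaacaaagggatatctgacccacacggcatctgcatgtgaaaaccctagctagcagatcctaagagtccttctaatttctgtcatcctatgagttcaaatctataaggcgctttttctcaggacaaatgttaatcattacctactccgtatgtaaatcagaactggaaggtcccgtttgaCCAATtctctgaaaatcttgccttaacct
Bin2a: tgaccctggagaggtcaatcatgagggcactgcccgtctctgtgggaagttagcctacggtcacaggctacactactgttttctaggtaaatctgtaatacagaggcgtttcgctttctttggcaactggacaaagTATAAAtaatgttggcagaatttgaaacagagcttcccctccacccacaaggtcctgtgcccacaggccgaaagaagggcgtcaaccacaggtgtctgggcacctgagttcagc
Mfge8: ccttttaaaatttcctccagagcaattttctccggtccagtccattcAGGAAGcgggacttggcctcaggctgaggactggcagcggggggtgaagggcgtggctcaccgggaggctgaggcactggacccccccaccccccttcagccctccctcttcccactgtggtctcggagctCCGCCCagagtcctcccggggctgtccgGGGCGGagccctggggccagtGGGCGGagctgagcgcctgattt

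Cd52 held 1 match, a GC box 77 bases before the start, and Bin2a held 1, a TATAAA at 114 bases before it. Ces5a held 2 CCAAT matches. Mfge8 held 3 GC boxes and 1 AGGAAG, and Npc2, not printed, held 6 GC boxes, 3 CCAAT and 2 AGATAA. GC content was 66.0% for Mfge8 and 60.8% for Npc2, 51.2% for Cd52, 50.8% for Bin2a and 39.6% for Ces5a, and the median over the 33469 upstream windows of the table was 51.2%. The androgen receptor half-site was in 17.5% of all windows and in none of the 5 measured members, while the unmeasured Teddm1 held 1. GC boxes were in 30.5% of all windows, CCAAT in 34.0%, AGGAAG in 29.5%, TATAAA in 12.9% and AGATAA in 10.3%. FOXA and AP-1 letters were in 11.6% and 6.34% of all windows and the full androgen receptor site in 0.0359%, and none of these was in a member's window. These are matches of letters and do not show binding.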

How the data were processed

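RNA from pools of whole rat epididymides of 4 ages was hybridized to 14 RatGene 2.0 ST arrays. The authors deposited 1 table of log2 signals for 36685 transcript clusters, and the submitters' processing notes name RMA and Transcriptome Analysis Console; the genome build and versions are not given in the sources used here. The deposited values were used as they stand. The platform annotation gave 18511 clusters 1 gene symbol, 575 several and 17599 none listed; 18394 of the first matched a RefSeq gene identifier. For 291 genes with more than 1 cluster the cluster of highest mean stood for the gene, which left 18166 genes.

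All 14 pools entered 1 limma model (limma 3.58.1, R 4.3.3) that estimates each age's mean, giving the differences between neighbouring ages, day 60 against day 7 and an F test. The p-values were adjusted by the Benjamini-Hochberg method over all genes with a threshold of 0.05. The fit was tested on simulated data with noise independent between genes and fewer changed genes than were called here. That test does not show how the fit performs on these data, and no result is drawn from it. The members and gene lists were chosen with earlier results of these data known. Named were all members, from each list and comparison the 2 called genes with the largest rise and the 2 with the largest fall, defining markers of cell types, and the 3 genes most correlated with each member; Npc1, Teddm3, the genes named after beta-galactosidase and the steps shown for genes named elsewhere were chosen after their values were seen.

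Alternatives were array centring, quantile normalization, a filter on low signal, all clusters, the mean of a gene's clusters, array weights, a trend in the variance, a minimum fold of 1.5, the pools of 2 ages alone, the replicate number as a block, and leaving out each pool. No 2 arrays were identical.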

Additional observations from a re-analysis of the deposited data

Results flagged for a closer look

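In 3 of the 14 sets of 4 pools (7 genes at day 18 and at day 28) 1 pool lay far from the other 3 by Dixon's test, which chance gives in about 1 set of 20. Ces5a read 13.25 in day 28 replicate 2, below the other day 28 pools. Mfge8 read 10.82 in day 18 replicate 3, above the other 3. Spag11a read 4.53 in day 18 replicate 1, below the other 3 and below the background level.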

How the results depend on the processing

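Of 672 values of the 7 genes under the alternatives, 661 kept their direction and their side of the threshold, 7 kept their direction and no longer passed, and 4 changed sign. The 4 that changed sign had not passed the test: Npc2 at day 60 against day 28 was 0.048 with arrays centred, 0.013 without day 28 replicate 3 and 0.015 without day 60 replicate 3, and Spag11a at day 18 against day 7 was 0.0016 without day 18 replicate 1. Over all single pools left out these differences ran from -0.043 to 0.015 for Npc2 and from -0.43 to 0.0016 for Spag11a. With a minimum fold of 1.5 the genes called were 1218 for day 18 against day 7 (6929 without it), 402 for day 28 against day 18 (4491), 305 for day 60 against day 28 (4550) and 2817 for day 60 against day 7 (8946), since that test asks for larger changes. Of the 7 genes, 3 passed it at day 28 against day 18 (Mfge8, Spag11a and Bin2a) and 1 at day 60 against day 28 (Mfge8). Leaving out 1 pool gave 5856 to 7367, 3677 to 4492, 3431 to 4459 and 8198 to 9304 genes for these 4 comparisons and 10255 to 11076 for the F test, and the 7 genes kept 6, 7, 2 and 7 calls each time. Same-numbered pools did not deviate together (19 pairs, correlation -0.143 to 0.0456, none over 0.1). With the replicate number as a block 6492, 4201, 3928 and 8750 genes were called, 10556 in the F test, and no call on the 7 genes changed. The number of pools limits what can be seen of small differences. Whether the ceiling of the arrays does so at high signal was not tested.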
